A study of Homo sapiens with 4 samples.

Results

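The ERBB receptors and their ligands were examined in HGC27 cells, an established human gastric cancer line. The 10 genes were taken by symbol from the 60666 rows of the deposited table. They are the 4 receptor genes EGFR, ERBB2, ERBB3 and ERBB4 and the 6 ligand genes HBEGF, AREG, EREG, TGFA, BTC and NRG1, and each had 1 row. Lactate cells (n = 2) had received 25 mM lactate in glucose-free DMEM for 24 h, and no-glucose cells (n = 2) the same DMEM alone. Both media held 10% FBS and 1% P.S. antibiotics, so neither medium had added glucose and both had serum. The study asked whether lactate acts on genes under the Hippo pathway, and the growth factor receptors described here were not its subject. Levels are in TPM, an abundance unit corrected for gene length and library size, so that levels of different genes can be set side by side. The depth of the libraries is unknown. The labels do not say whether the 2 libraries of a group came from separate cultures, and p-values therefore reflect nothing but the variation among these libraries, which may be technical.

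ERBB receptors are tyrosine kinases of the cell surface that signal as pairs. EGFR binds EGF, TGFA, AREG, EREG, BTC and HBEGF, ERBB4 binds the neuregulins and also HBEGF, BTC and EREG, and ERBB3 binds neuregulins but has little kinase activity of its own. ERBB2 has no known ligand and serves as the partner of the others. The ligands are made as membrane proteins and are shed by proteases, and the active receptors feed the RAS-ERK and PI3K-AKT pathways. ERBB2 is amplified in some gastric cancers, where it is a drug target.

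Of the 10 genes, 5 reached the mean of 1 TPM over the 4 libraries that was required for a test. ERBB2 and NRG1 were the only well expressed members, HBEGF was low, ERBB3 and ERBB4 lay just above 1 TPM, and EGFR, TGFA, BTC, AREG and EREG lay below. No member passed the test between lactate and no-glucose cells in limma at an adjusted p under 0.05, where 6.59% of the 15051 tested rows passed, 4.69% higher and 1.9% lower in lactate cells. Higher rows were 71.2% of those that passed and 50.5% after median-ratio scaling of the libraries. With 1 library left out, 10 rows passed without the first lactate library, 3 without the second, 9 without the first no-glucose library and 0 without the second, where 2396 rows had an unadjusted p under 0.05 in limma. All 10 genes reported below as risen or fallen kept their direction in these fits but missed the threshold in each, with adjusted p between 0.110 and 0.285. At an unadjusted p under 0.05, 2 of the 5 tested members were higher in lactate cells, ERBB2 and HBEGF, and 28.2% of all tested rows reached that p. The groups did not overlap in those same 2 members, against 37% of tested rows that were higher without overlap and 21.3% that were lower, so these counts do not set the family apart from the rest of the table. The median log2 fold change was 0.20 over the 5 tested members and 0.08 over all tested rows.

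**Figure D1:**
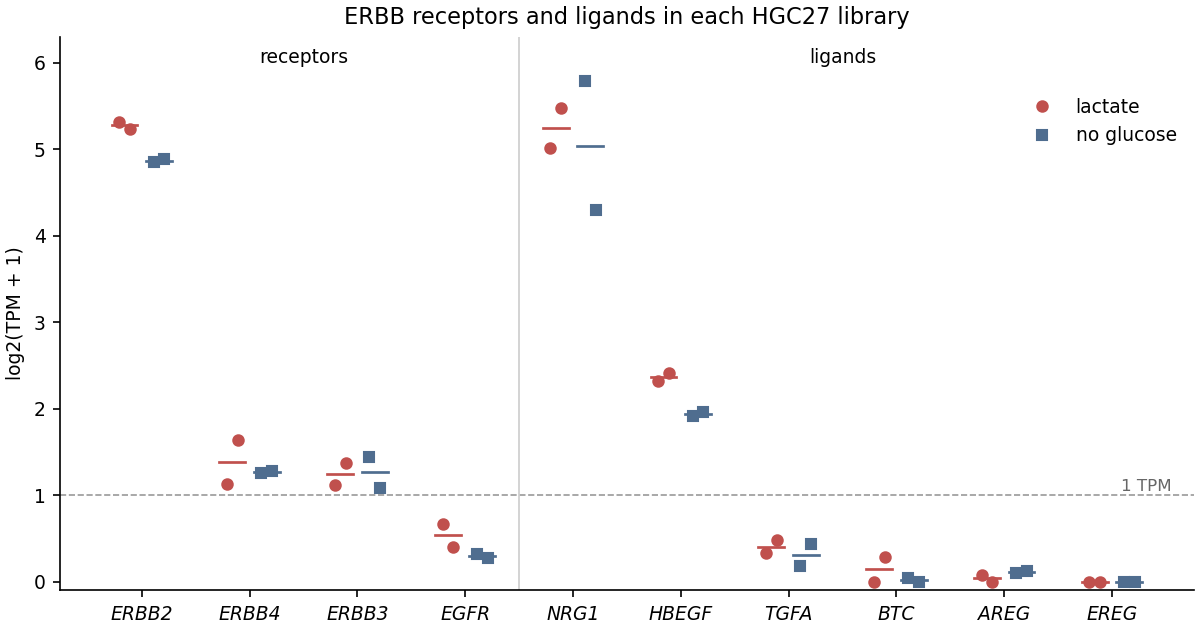
Level of each receptor and ligand gene as log2(TPM + 1) on the vertical axis, with 1 point per library, circles for lactate and squares for no glucose, and a bar at each group mean. ERBB2 and NRG1 stand above 4 on this scale in every library, the NRG1 squares are the farthest apart, and the points of EGFR, TGFA, BTC, AREG and EREG all lie under the dashed line at 1 TPM.

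In lactate cells the receptor genes ran from ERBB2 (mean 37.7 TPM) through ERBB4 (1.66 TPM) and ERBB3 (1.37 TPM) to EGFR (0.455 TPM). In no-glucose cells the order was ERBB2 (28.1 TPM), ERBB3 (1.42 TPM), ERBB4 (1.41 TPM) and EGFR (0.230 TPM). The libraries of ERBB3 and ERBB4 overlapped in both groups, so their order was not resolved, whereas the libraries of ERBB2 lay above, and those of EGFR below, every library of this pair.

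ERBB2, the receptor without a ligand of its own, was at 38.9 and 36.5 TPM in lactate cells, against 27.8 and 28.5 TPM in no-glucose cells. Both lactate libraries were above both no-glucose libraries, and the libraries of a group were close to each other. The means were 37.7 ± 1.69 TPM in lactate cells and 28.1 ± 0.488 TPM in no-glucose cells (SD, n = 2 each). The log2 fold change on the log2(TPM + 1) scale was 0.41 ± 0.10 (SE, 95% confidence interval 0.16 to 0.66), with an unadjusted p = 0.00839 and an adjusted p = 0.0713 in limma, so the difference missed the threshold. When protein-coding genes alone were tested it passed (adjusted p = 0.0455), in a fit where 17% of rows passed. After median-ratio scaling the log2 fold change was 0.31 (adjusted p = 0.130). A difference of this size was shared by many genes of the table, and ERBB2 stood at the 79.0th percentile of all log2 fold changes.

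The 3 tested rows whose centred log2 values over the 4 libraries lay closest to those of ERBB2, by Euclidean distance among 8094 other rows without overlap of the groups that carried a gene symbol rather than a clone or LOC name, were GNA12, TSC22D3 and MED14. GNA12, a G protein subunit, was at 22.1 and 20.6 TPM in lactate cells, against 15.6 and 16.1 TPM in no-glucose cells. TSC22D3, a glucocorticoid-induced gene also known as GILZ, was at 40.6 and 38.2 TPM, against 28.9 and 29.9 TPM. MED14, a Mediator subunit, was at 15.5 and 14.4 TPM, against 10.8 and 11.3 TPM. With 4 libraries such likeness is a description only.

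The promoters of ERBB2 and HBEGF are shown because these were the tested members that were higher in both lactate libraries. Each is the stretch of 250 bases before the gene's start in RefSeq (GRCh38.p14), read 5′ to 3′ on the gene's strand. The ERBB2 stretch lies at chr17:39687844-39688093 on the + strand and the HBEGF stretch at chr5:140346604-140346853 on the - strand. Capitals mark the matches to 3 motifs searched on both strands, GGAATG for TEAD factors, TGANTCA for AP-1 and TGACG for the core of CRE sites.
ERBB2: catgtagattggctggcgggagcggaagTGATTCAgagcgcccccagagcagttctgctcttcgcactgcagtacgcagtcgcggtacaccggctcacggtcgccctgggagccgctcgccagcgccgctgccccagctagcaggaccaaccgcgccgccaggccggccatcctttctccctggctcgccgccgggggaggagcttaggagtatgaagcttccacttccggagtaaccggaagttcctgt
HBEGF: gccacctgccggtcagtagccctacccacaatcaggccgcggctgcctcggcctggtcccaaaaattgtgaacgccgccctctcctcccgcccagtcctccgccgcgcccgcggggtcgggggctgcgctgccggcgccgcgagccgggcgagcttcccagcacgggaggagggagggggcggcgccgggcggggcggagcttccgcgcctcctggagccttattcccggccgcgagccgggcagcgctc
The ERBB2 stretch held 1 match, to the AP-1 motif, which began 222 bases before the start, and the HBEGF stretch held none. The motif as searched leaves its central base N open, and the ERBB2 match, TGATTCA, had T there. Whether AP-1 binds this match was not tested. EGFR, also higher in both lactate libraries but under the filter, had entries for 2 starts. The first held no match, and the second held 1 TEAD match and 2 AP-1 matches. Of the other members with an entry, AREG held 2 CRE core matches, and EREG held 1 TEAD match and 1 CRE core match. TGFA held 1 CRE core match at 1 of its 2 starts, and ERBB4 and BTC held no match. Of 35116 RefSeq promoter stretches of this length, 6.57% held the AP-1 motif, 11.9% the TEAD motif and 21.2% the CRE core. The principal ERBB2 transcript of GENCODE begins 11986 bases downstream of this start, so the ERBB2 stretch stands for the upstream start of the gene only. The principal HBEGF transcript begins 28 bases upstream of the RefSeq start.

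ERBB2 (NCBI gene 2064) occupies chromosome 17 from 39687914 to 39730426 in GENCODE 29 on GRCh38. It shares sequence there with PGAP3 and MIEN1, both on the opposite strand, and a further overlapping row was listed at 0 in every library. Whether the counting used strand is not given in the sources used here, so reads from the shared stretches cannot be told apart. MIEN1 was at 35.4 and 31.4 TPM in lactate cells, against 37.2 and 30.5 TPM in no-glucose cells, and its log2 fold change was -0.02. PGAP3 was at 2.33 and 2.64 TPM, against 2.64 and 3.09 TPM. Neither overlapping gene was higher in lactate cells. Within 250 kb of ERBB2 lay 23 other rows, of which 8 were tested and none passed in limma. STARD3, a cholesterol transfer protein, was at 29.5 and 27.0 TPM, against 25.0 and 23.9 TPM. GRB7, an adaptor of ERBB2 that is often amplified together with it, was at 0.730 and 0.700 TPM, against 0.170 and 0.530 TPM, far below its neighbour in every library. MIEN1, PGAP3, STARD3 and GRB7 were chosen after their values were seen.

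ERBB4, a full kinase that binds neuregulins, was at 1.19 and 2.12 TPM in lactate cells, against 1.39 and 1.42 TPM in no-glucose cells. The lactate libraries lay on either side of the no-glucose pair. ERBB3, the neuregulin receptor with little kinase activity, was at 1.16 and 1.58 TPM, against 1.72 and 1.12 TPM, and the groups overlapped. The log2 fold changes were 0.12 (95% confidence interval -0.58 to 0.82) for ERBB4 and -0.02 (-0.71 to 0.66) for ERBB3, with adjusted p of 0.810 and 0.965 in limma, and both intervals allow changes in either direction. EGFR, the receptor of EGF itself, was at 0.590 and 0.320 TPM in lactate cells, against 0.250 and 0.210 TPM in no-glucose cells. Its groups did not overlap, but it lay under the filter in every library, and with 2 libraries in each group an exact permutation test cannot give a p below 0.333. In a fit without the filter its log2 fold change was 0.24 (adjusted p = 0.503).

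Summed over the 4 receptor genes, levels were 41.8 and 40.5 TPM in lactate cells, against 31.1 and 31.2 TPM in no-glucose cells. ERBB2 made up 93.0% and 90.1% of that sum in lactate libraries and 89.2% and 91.2% in no-glucose libraries. The sum differed by more than the spread between libraries, and the share of ERBB2 in it did not. EGFR made up 1.41% and 0.790% of the sum in lactate libraries, against 0.803% and 0.673% in no-glucose libraries.

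**Figure D2:**
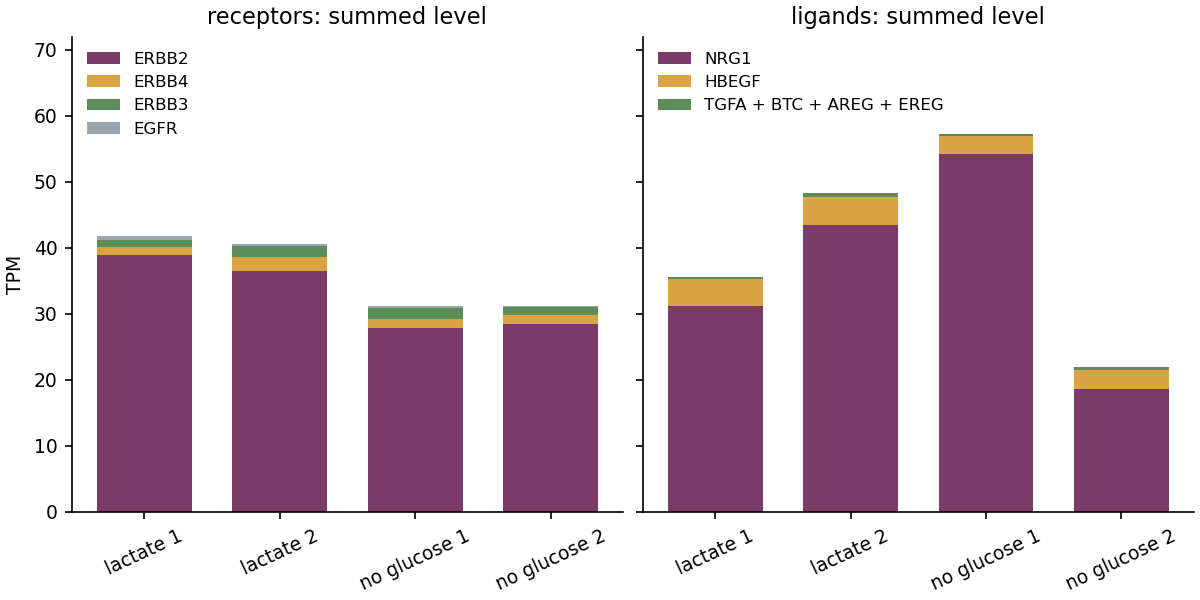
Summed TPM of the receptor genes (left) and of the ligand genes (right) in each library, stacked by gene, with lactate libraries left of no-glucose libraries. ERBB2 fills between 89.2% and 93.0% of the receptor bars, which reach 41.8 and 40.5 TPM with lactate, and the ligand bars follow NRG1, which fills between 84.8% and 94.7% of them.

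Among the ligands, NRG1 led. NRG1 encodes neuregulin 1, the main ligand of ERBB3 and ERBB4. It was at 31.2 and 43.4 TPM in lactate cells, against 54.2 and 18.7 TPM in no-glucose cells. The no-glucose libraries held both the highest and the lowest value. The means were 37.3 ± 8.61 TPM in lactate cells and 36.4 ± 25.1 TPM in no-glucose cells (SD, n = 2 each), and the log2 fold change was 0.20 ± 0.49 (SE, 95% confidence interval -1.04 to 1.44, adjusted p = 0.824 in limma). Its direction rested on single libraries. It was 0.95 without the first no-glucose library, -0.54 without the second no-glucose library, 0.43 without the first lactate library and -0.03 without the second lactate library, none past the threshold.

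The spread of NRG1 was wide for a gene of its level. Between the no-glucose libraries it differed 2.91-fold, a gap of 1.49 on the log2(TPM + 1) scale, where the median gap was 0.118 over the 4274 tested rows within 2-fold of its mean level. Only 22 of those rows had a larger gap. Between the lactate libraries its gap was 0.46, at the 94.4th percentile of the same rows. ERBB2, with a similar mean level, had gaps of 0.03 between no-glucose libraries and 0.09 between lactate libraries. The NRG1 gene (NCBI gene 3084) spans 1129 kb of chromosome 8, from 31639386 to 32767959, with 22 transcripts in GENCODE 29, against 42.5 kb and also 22 transcripts for ERBB2. ERBB4 spans 1163 kb, and its gap was 0.02 between no-glucose libraries and 0.51 between lactate libraries. These lay at the 5.12th and 75.8th percentiles of tested rows within 2-fold of its own level. Whether gene length bears on the spread was not tested. The table gives 1 value per gene, so which NRG1 transcripts were present cannot be read from it.

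**Figure D3:**
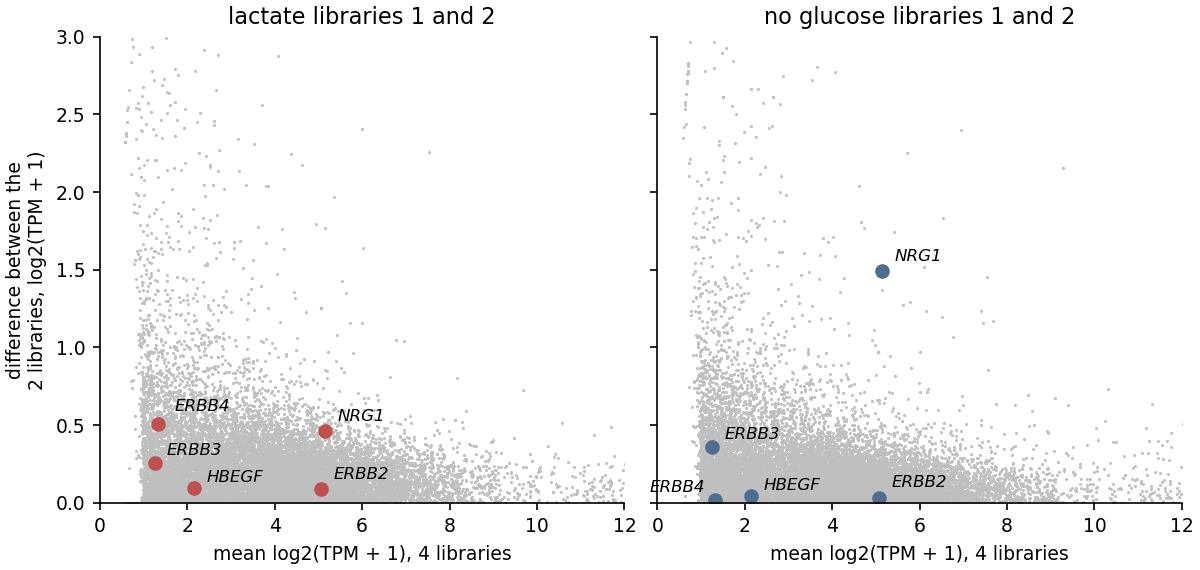
Absolute difference between the 2 libraries of a group on the log2(TPM + 1) scale, against the mean of the 4 libraries on that scale, with lactate on the left and no glucose on the right; each grey dot is 1 of 15051 tested rows, and 112 rows on the left and 104 on the right lie beyond the axes. NRG1 stands out at 1.49 between the no-glucose libraries and lies at 0.46 between the lactate libraries, and ERBB2 and HBEGF lie under 0.1 in both.

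HBEGF, a ligand of EGFR and ERBB4 that is also the receptor of diphtheria toxin, was at 3.98 and 4.31 TPM in lactate cells, against 2.78 and 2.89 TPM in no-glucose cells. Both lactate libraries were higher, and the gap between the groups exceeded the gap within them. The means were 4.15 ± 0.233 TPM and 2.84 ± 0.0778 TPM (SD, n = 2 each). The log2 fold change was 0.42 ± 0.17 (SE, 95% confidence interval 0.0010 to 0.85), with an unadjusted p = 0.0496 and an adjusted p = 0.176 in limma, so it did not pass. The unadjusted p in limma was 0.0638 with a block for the replicate number and 0.0758 after median-ratio scaling. It was 0.0908 without the filter and 0.0533 without mitochondrial genes. With a pseudocount of 0.1 TPM it was 0.0437, and among protein-coding genes 0.0359. The log2 fold change of HBEGF lay at the 79.9th percentile of all log2 fold changes, next to ERBB2. When 1 library was left out it stayed between 0.38 and 0.47 and did not pass.

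TGFA, an EGFR ligand, was at 0.260 and 0.390 TPM in lactate cells, against 0.130 and 0.350 TPM in no-glucose cells. AREG, amphiregulin, was at 0.05 TPM and listed at 0 in lactate cells, against 0.0700 and 0.0900 TPM in no-glucose cells. BTC, betacellulin, was listed at 0 and at 0.220 TPM, against 0.0300 TPM and 0. EREG, epiregulin, was listed at 0 in all 4 libraries. These 4 EGFR ligands lay under 1 TPM in every library and were not in the test. In the fit without the filter the adjusted p was 0.738 for TGFA, 0.627 for BTC and 0.580 for AREG, and no fold change is given for values this close to 0.

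AREG, EREG and BTC lie together on chromosome 4, at 74445134 to 74455009, 74365143 to 74388751 and 74744759 to 74794686, and EPGN, which encodes the EGFR ligand epigen, lies near EREG. All 4 genes were thus near 0, while MTHFD2L, a mitochondrial folate enzyme and the only tested row within 250 kb of EREG, was at 6.67 and 13.0 TPM in lactate cells, against 7.62 and 8.81 TPM in no-glucose cells. Around the other members, DGKA rose, 122772 bases from ERBB3 (log2 fold change 0.86, adjusted p = 0.0327 in limma). CYSTM1 rose, 50791 bases from HBEGF (0.92, adjusted p = 0.0308). SNRPG fell by 0.48, 153509 bases from TGFA (adjusted p = 0.0410). Each was the only row to pass within 250 kb of its member, among 29 tested near ERBB3, 12 near HBEGF and 6 near TGFA. No row passed near any other member. Of all tested rows 6.59% passed, so these single calls do not set the surroundings of the members apart.

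In lactate cells the ligand genes ran from NRG1 through HBEGF, TGFA (0.325 TPM) and BTC (0.110 TPM) to AREG (0.0250 TPM) and EREG at 0. In no-glucose cells AREG (0.0800 TPM) stood above BTC (0.0150 TPM). In both groups every library of NRG1 lay above those of HBEGF, and every library of HBEGF above those of TGFA. The 2 NRG1 libraries of no-glucose cells were nevertheless farther apart in TPM than NRG1 and HBEGF were on average. The libraries of BTC and AREG overlapped in lactate cells. The ligand sum was 35.5 and 48.3 TPM in lactate cells, against 57.2 and 22.0 TPM in no-glucose cells, so it overlapped between the groups as NRG1 did.

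The other ligands of the family were followed from a list of 5. EGF was at 1.51 and 2.03 TPM in lactate cells, against 0.530 and 0.640 TPM in no-glucose cells, and its log2 fold change was 0.80 (unadjusted p = 0.0286, adjusted p = 0.131 in limma). It did not pass over all rows but passed among protein-coding genes (adjusted p = 0.0423 in limma), in a fit where 17% of rows passed. EGF was under 1 TPM in both no-glucose libraries and reached the filter only through its lactate libraries. A gene kept in this way tends to be higher with lactate, so its p is given as description only. NRG4, a ligand of ERBB4, was at 5.88 and 6.78 TPM, against 4.92 and 3.56 TPM, with 0.49 as its log2 fold change (adjusted p = 0.169). Both genes were higher in both lactate libraries. NRG2 was between 0.310 and 0.600 TPM, and EPGN and NRG3 were at or under 0.0400 TPM in every library.

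Of 8 genes for the release of the ligands, 6 were tested, 1 rose and none fell in limma, where 6.59% of all tested rows passed. RHBDF1, an inactive rhomboid protein (iRhom1) that supports the sheddase ADAM17, rose and was at 18.3 and 17.3 TPM in lactate cells, against 10.3 and 11.1 TPM in no-glucose cells (log2 fold change 0.69 ± 0.12, SE, adjusted p = 0.0410). ADAM9 (0.42, adjusted p = 0.0914), ADAM10 (0.32, adjusted p = 0.154) and RHBDF2 (0.29, adjusted p = 0.230) did not pass. All 6 tested genes had log2 fold changes above 0, with a median of 0.30 against 0.08 over all tested rows, and the groups did not overlap in 5 of them, all higher in lactate cells, against 37% of all tested rows. After median-ratio scaling 0 genes of the list passed.

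Of 15 genes listed for the restraint or turnover of the receptors, 1 rose and none fell, a share close to the 6.59% of all tested rows that passed. The genes of this list need not all act on the receptors in the same direction. PTPN12, a phosphatase known to act on ERBB receptors, rose and was at 44.6 and 52.2 TPM in lactate cells, against 28.6 and 31.1 TPM in no-glucose cells (log2 fold change 0.68 ± 0.12, SE, adjusted p = 0.0448 in limma). PTPRJ, a receptor phosphatase, had a log2 fold change of 0.79 (adjusted p = 0.0568), the ubiquitin ligase CBL one of 0.48 (0.0826) and the endocytic adaptor EPS15 one of 0.44 (0.0852). On the other side, STUB1, a ubiquitin ligase that targets ERBB2, was at -0.13 and PTPN1 at -0.09. The median over the list was 0.14, and PTPN12 did not pass after median-ratio scaling (adjusted p = 0.0505).

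Of 27 adaptors and kinases that relay the signal, 1 rose and none fell, which is below the 6.59% that passed over the whole table. GAB2, a docking protein for PI3K, rose and was at 6.51 and 6.63 TPM in lactate cells, against 3.49 and 3.59 TPM in no-glucose cells (log2 fold change 0.74 ± 0.14, SE, adjusted p = 0.0496 in limma). BRAF (0.59, adjusted p = 0.0545), the adaptor SHC1 (0.42, adjusted p = 0.0668) and MAPK3, which encodes ERK1 (0.42, adjusted p = 0.102), did not pass. PIK3R1, the regulatory subunit of PI3K (-0.45, adjusted p = 0.110), and the adaptor GRB2 (-0.26, adjusted p = 0.154) were lower and did not pass. The median was 0.16, and GAB2 did not pass after median-ratio scaling (adjusted p = 0.0616), with a filter at 5 TPM (adjusted p = 0.0773) or after removal of mitochondrial genes (adjusted p = 0.0525). With the filter at 5 TPM the 1 relay gene that passed was BRAF (adjusted p = 0.0460).

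Of 22 genes known to be transcribed on receptor and ERK activity, 12 were tested, 3 rose and none fell, where 4.69% of all tested rows rose and 1.9% fell. The list's median was 0.62 on the log2 scale, against 0.08 over all tested rows. IER3, an immediate early gene that modulates cell death, rose and was at 24.5 and 25.7 TPM in lactate cells, against 6.58 and 8.50 TPM in no-glucose cells (1.62 ± 0.15, SE, adjusted p = 0.0244 in limma). FOS, a subunit of AP-1, rose and was at 4.08 and 4.55 TPM, against 1.44 and 0.970 TPM (1.28 ± 0.21, SE, adjusted p = 0.0410). JUNB, another AP-1 subunit, rose and was at 71.6 and 57.9 TPM, against 36.3 and 39.3 TPM (0.75 ± 0.13, SE, adjusted p = 0.0439), and did not pass after median-ratio scaling. JUN (0.63, adjusted p = 0.0545) did not pass. CCND1, which encodes cyclin D1, was lower (-0.30, adjusted p = 0.107) and did not pass. The 10 other genes lay under the filter, among them DUSP6, an ERK phosphatase, at 0.160 and 0.0900 TPM, against 0.0700 and 0.120 TPM, and SPRY4, a feedback inhibitor, at 0.0400 and 0.0300 TPM with lactate and listed at 0 without it. DUSP6 and SPRY4 were named after their values were seen. Other pathways feed these genes too, and ERBB activity was not measured.

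**Figure D4:**
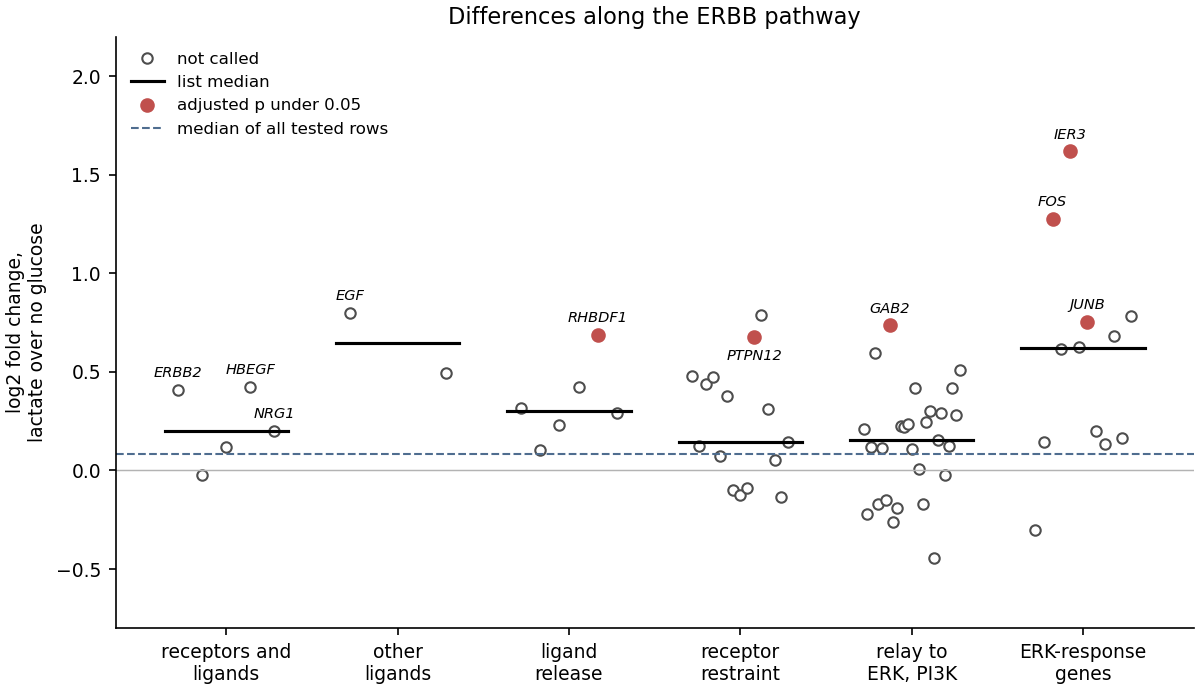
Log2 fold change between lactate and no-glucose cells (positive where lactate was higher, in log2(TPM + 1) units) for every tested gene of the 6 lists, 1 circle per gene, filled where the adjusted p was under 0.05, with a bar at each list's median and a dashed line at the median of all tested rows (0.08). The filled circles are RHBDF1, PTPN12, GAB2, IER3, FOS and JUNB, and no circle in the list of receptors and ligands is filled.

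The labelled cell type was checked against markers. Of 10 genes of the gastric mucosa, 8 were listed at 0 in all libraries, and their sum was 2.34 and 0.910 TPM in lactate cells, against 4.21 and 1.39 TPM in no-glucose cells. Of 6 epithelial genes, 2 reached the filter, KRT8 and CDH1, and EPCAM and KRT18 stayed under 1 TPM in every library. KRT8 rose by 1.24 on the log2 scale (adjusted p = 0.0328 in limma), to 6.07 and 6.0 TPM in lactate cells, against 2.08 and 1.87 TPM in no-glucose cells. The epithelial sum was 11.5 and 10.3 TPM, against 5.47 and 4.26 TPM, and KRT8 was its largest part in every library. CDH1 was at 3.76 and 1.63 TPM in lactate cells, against 1.95 and 0.830 TPM in no-glucose cells, and its groups overlapped. KRT18, KRT19 and CLDN4 also overlapped. EPCAM did not, at 0.370 and 0.800 TPM, against 0.130 and 0.150 TPM. Of 13 genes of leukocytes, endothelium, fibroblasts and erythroid cells, 8 lay under the filter, CD3E and HBB were listed at 0, and the fibroblast-associated genes COL1A1, DCN and LUM were between 152 and 362 TPM. The sum of these 13 genes was 689 and 714 TPM, against 627 and 652 TPM, and none passed over all rows. PDGFRB, a receptor of fibroblasts and pericytes, was at 4.33 and 4.90 TPM in lactate cells, against 2.24 and 1.48 TPM in no-glucose cells (log2 fold change 0.98, adjusted p = 0.0596 in limma). COL1A1 had a log2 fold change of 0.40 (adjusted p = 0.0647). Both passed among protein-coding genes only (adjusted p = 0.0201 for PDGFRB and 0.0323 for COL1A1), the fit in which ERBB2 and EGF passed. DCN went the other way, at 162 and 186 TPM in lactate cells, against 213 and 210 TPM in no-glucose cells. Its log2 fold change was -0.28 (adjusted p = 0.145 in limma). LUM was at 157 and 196 TPM, against 152 and 178 TPM, and its groups overlapped (log2 fold change 0.09). The fibroblast-associated genes thus did not move together. The part of these genes in the ERBB2, EGF and HBEGF differences was not tested. In bulk RNA, fewer cells of a kind and less RNA per cell cannot be told apart.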

How the data were processed

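RNA of 4 HGC27 libraries, 2 with lactate and 2 without, was measured by sequencing. The authors deposited 1 table with a TPM value per gene and library, to 2 decimals; the submitters' processing notes name RSEM 1.3.3 and the build hg38. What aligned the reads, with which annotation and strand setting, was not given in the sources used here. TPM keeps no depth, so counting intervals were not computed and count models were not used. A pseudocount of 1 TPM was added before the log2 transform. The 15051 rows averaging 1 TPM or more entered limma 3.58.1 (R 4.3.3), with group as the only term, a variance prior following mean level, and Benjamini-Hochberg adjustment over all tested rows. An adjusted p under 0.05 was called. The fit was tested on simulated data. Fold changes are lactate over no glucose and understate changes of low genes.

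The members and lists were chosen with earlier results of these data known. Lists are described by counts and medians, with no test. Named genes are all members, the other ligands, up to 4 genes per list, ranked by adjusted p, on the side with more calls (up to 2 on the other), the 3 rows closest to the member with the smallest p, and called genes within 250 kb of a member. Promoters are RefSeq's, with an entry for 8 of 10 members, and positions are from GENCODE 29 on GRCh38, the same assembly as hg38. Alternatives were omission of each library in turn, a block for the replicate number, a pseudocount of 0.1 TPM, no filter, a filter at 5 TPM, median-ratio scaling, protein-coding genes only, removal of mitochondrial genes, an adjusted p under 0.01, and a log2 fold change of 1 or more required of a call. Those planned for read counts could not be run on TPM.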

Additional observations from a re-analysis of the deposited data

How the results depend on the processing

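No alternative turned ERBB2 or HBEGF round, and ERBB2 (0.41) passed with protein-coding genes only, where 1 of the 10 members, 1 other ligand, 2 restraint, 3 relay and 7 ERK-response genes, and the markers COL1A1 and PDGFRB, passed among 2066 rows (1500 higher, 566 lower). The labels do not say whether the replicate numbers pair the samples. With 2 libraries per group, the correlation of same-numbered deviations (0.04) cannot settle it. With the replicate block 1207 rows and 0 relay genes passed in limma. In that fit GAB2 (adjusted p = 0.0586) and FOS (0.0524) missed the threshold, and IER2 (0.0426) passed. Without a filter 0 rows passed in limma (0 higher, 0 lower), with 5072 at an unadjusted p under 0.05, so 0 release, restraint, relay and ERK-response genes passed, and medians were -0.021 for other ligands and 0.27 for ERK-response genes. A pseudocount of 0.1 TPM gave 2 restraint and 2 relay genes and a median of 1.01 for other ligands. A filter at 5 TPM gave 5 ERK-response genes, BRAF in place of GAB2, 442 lower rows and a median of 0.49 for other ligands, with NRG4 alone left. Median-ratio scaling gave 389 higher and 382 lower rows, 50.5% higher against 71.2%, with 0 release, restraint and relay genes, medians of 0.53 (ERK response), 0.065 (relay), 0.050 (restraint) and 0.21 (release), and a receptor sum 7.53 TPM higher with lactate. The median over all tested rows was -0.0041 after this scaling. Removing mitochondrial genes gave 0 relay genes and a receptor sum 11.1 TPM higher, against 10.0 TPM with the values as deposited. An adjusted p under 0.01 left 1 row (0 higher, 1 lower) and 0 list genes, and a log2 fold change of at least 1 left 310 rows (261 higher, 49 lower) and 0 release, restraint and relay genes.

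With 1 library left out, the remaining sample of that group is taken to have the other group's variance, and 1 residual degree of freedom is left beside the prior. Between 0 and 10 rows passed (0 to 8 higher, 0 to 7 lower), and 0 genes of the members and 5 pathway lists. Log2 fold changes were between 0.37 and 0.45 for ERBB2, -0.20 and 0.16 for ERBB3, -0.14 and 0.38 for ERBB4, and -0.54 and 0.95 for NRG1; ERBB3 was at 0.10 and 0.16 without the first lactate or first no-glucose library, and NRG1 at -0.03 without the second lactate library. List medians were between 0.41 and 0.76 for other ligands, 0.24 and 0.39 for release, 0.055 and 0.28 for restraint, and 0.10 and 0.18 for relay. The cause of these differences was not tested. Depth is unknown, and members under 1 TPM cannot be compared between the groups.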
